A study of Mus musculus with 24 samples.

Results

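Gene expression was compared between hormone-treated HC11 cells transfected with siPINC, a pair of siRNAs against *mPINC*, and hormone-treated HC11 cells given the control siRNA siNEG. These are 6 arrays, 3 of siPINC and 3 of siNEG, chosen by their sample titles out of the 24 arrays of the study. HC11 is a cell line from mouse mammary epithelium that stops dividing at confluency and makes milk proteins when it is given lactogenic hormones. *mPINC* is a long noncoding RNA of the mammary gland with several splice forms. siPINC combines siRNAs #1 and #3 and is directed at all of them, siPINC1.0/1.6 combines siRNAs #1 and #2 and is directed at *mPINC1.0* and *mPINC1.6* but not at the form DCR2, and siNEG is a negative control. Each was transfected at a concentration of 10 nM. The +LH cells received hydrocortisone, insulin and prolactin, and the -LH cells were undifferentiated. Insulin was also part of the study's growth medium, which held EGF and calf serum, while the hormone medium held stripped horse serum. The medium of the -LH cells at harvest is not given for these arrays, so medium and time may differ along with the hormones. How long the hormones were given before RNA was taken for these arrays is not given in the sources used here. Used beside the 6 arrays were 3 arrays of siPINC1.0/1.6 +LH cells, 4 arrays of -LH cells (2 of siPINC and 2 of siNEG), and 6 arrays of +LH cells transduced with a lentivirus, 3 with LeGO-1.0/1.6, which carries *mPINC1.0* and *mPINC1.6*, and 3 with the control LeGO-GFP. All are cultures of 1 cell line, and the labels do not say whether replicates of a group were started or treated on different days, so the p-values measure the spread between these cultures.

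Alveolar cells of the mammary gland divide during pregnancy and then leave the cell cycle to secrete milk. Prolactin acts through its receptor, the kinase Jak2 and the transcription factor Stat5a, glucocorticoids act through a nuclear receptor, and both are needed for strong casein gene expression in culture. Genes of DNA replication and mitosis are switched on together in dividing cells and repressed together in resting ones, and keratins and cornified envelope genes mark the cell's place between the simple, basal and epidermal kinds of epithelium.

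A value below is a log2 signal, the logarithm to base 2 of a probe's processed fluorescence after quantile normalization, and a difference is siPINC minus siNEG in +LH cells unless another pair is named. A probe or gene was called when its adjusted p, from limma with Benjamini-Hochberg adjustment over all 55681 probes, was under 0.05. Where a gene has several probes the brightest stands for it, save that the largest rises and falls were taken probe by probe. These were picked among called, detected probes with a symbol whose siPINC and siNEG arrays did not overlap. Lack of overlap in them is thus not separate evidence. Between 24012 and 28135 probes were well above background on each of the 6 arrays. The siNEG +LH replicate 1 array was the one with 24012 and the only one of the 6 on slide 1, and the other 5 lay on slide 2, with siNEG in column 1 and siPINC in columns 3 and 4, so slide column and siRNA cannot be told apart. The epithelial markers *Epcam*, *Cdh1*, *Krt8*, *Krt18*, *Krt5* and *Krt14* were well above background on all 6 arrays, and *Ptprc*, *Cdh5*, *Emcn*, *Adipoq*, *Lep* and *Cidec*, which define leukocytes, endothelial cells and adipocytes, on none of them. Of the mature luminal markers, the hormone receptor genes *Esr1* and *Pgr* and *Foxa1* were also on none, and *Prlr*, *Ly6a* and *Wnt4* on all 6. Of the basal and myoepithelial markers, the smooth muscle myosin gene *Myh11* was on none and *Trp63*, *Acta2* and *Oxtr* on all 6. *Dcn* and *Pdgfra* of fibroblasts, *Kdr* of endothelial cells and *Csf1r* and *Cd3e* of leukocytes were on all 6 as well. Of the cell type markers only *Elf5*, of luminal progenitors, was called, and the part of other cell types in the results was not tested.

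The transcript aimed at was near the limit of detection after hormone treatment. The probe for *mPINC* (RefSeq NR_003202) read 4.96, 4.94 and 4.72 in siNEG +LH cells and 4.76, 4.21 and 4.15 in siPINC +LH cells. It was well above background on 2 of the 3 siNEG arrays and 1 of the 3 siPINC arrays, and the highest siPINC value lay above the lowest siNEG value. The difference of -0.50 (SE 0.187) had an adjusted p of 0.428 and ranged from -0.69 to -0.39 when each of the 6 arrays was left out in turn. With normexp background correction it was -0.046 and with the deposited series matrix -0.089. In -LH cells, where the signal was higher, it was 7.41 and 7.48 with siNEG and 6.39 and 6.16 with siPINC, without overlap, a difference of -1.17 with an adjusted p of 0.147 by limma. In +LH cells with LeGO-1.0/1.6 it was 13.50, 13.48 and 13.34, against 6.38, 5.92 and 5.92 with LeGO-GFP.

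Few probes were called for siPINC against siNEG, and most of those called rose. Of the 55681 probes 379 (0.681%) were called, 307 higher (0.551%) and 72 lower (0.129%), while 5620 (10.1%) had an unadjusted p under 0.05. An unadjusted p under 0.01 by limma together with a change of more than 1.4-fold was found for 711 probes (1.28%). Of these 477 were higher (0.857%) and 234 lower (0.42%). The study set the same limits with a different test, for genes that knockdown and overexpression changed in opposite directions. For knockdown alone in undifferentiated cells it required a larger fold. Per gene, 227 of 20167 (1.13%) were called higher and 49 (0.243%) lower. Changes were mostly small: the median size was 0.61 for the rises, 39 of which were over 2-fold, and 0.51 for the falls, 5 of which were over 2-fold. The 3 siPINC and 3 siNEG arrays did not overlap for any of the 379 called probes, nor for 20.5% of all probes. The split between rises and falls depended on the fit, with 66.5% of calls higher among bright probes alone and 65.1% in a fit of all 24 arrays, against 81.0%. On slide 2 alone, that is without siNEG +LH replicate 1, 108 probes were called, 89 of them shared with the 379. Without siNEG +LH replicate 2 or 3 the count was 84 or 192, and without siPINC +LH replicate 1, 2 or 3 it was 66, 213 or 67. All 379 kept their direction in each of these fits, as groups that do not overlap must, and 39 were called in all 6.

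Keratin genes and genes of secreted or membrane proteins were among the largest rises of detected probes with a symbol. *Krt6a*, a keratin of hair follicles and wounded epidermis, was 7.85, 8.01 and 8.32 in siNEG cells and 9.92, 9.87 and 9.70 in siPINC cells. Every siPINC array lay above every siNEG array, and the fitted rise was 1.77 (SE 0.125, 3.41-fold, adjusted p 0.00665 by limma). Its neighbour *Krt6b* rose by 1.56 on its brightest probe and by 1.58 on another, and *Gm5476*, a transcribed pseudogene of the same cluster, by 1.74. These are near-identical sequences, and which of them bound to each probe is uncertain.

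*Wfdc21*, a small secreted protein with a protease inhibitor fold, was not well above background on any siNEG +LH array, where it read 3.94, 4.01 and 4.18. With siPINC it read 5.92, 5.88 and 6.06, at least 2.90-fold higher, counting siNEG at the lowest signal that was well above background (adjusted p 0.00255 by limma). *Xpnpep2*, a membrane aminopeptidase, was likewise not above background with siNEG and at least 2.05-fold higher with siPINC. *Sprr1a*, a precursor of the cornified envelope, was 6.12, 6.19 and 5.53 with siNEG and 7.35, 7.38 and 7.51 with siPINC. The groups were well apart although 1 siNEG array lay below the other two, and the rise was 1.47 (SE 0.184, adjusted p 0.0275, up to 0.121 without 1 array).

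*Krt23* was 9.46, 9.40 and 9.65 with siNEG and 10.80, 10.58 and 10.71 with siPINC, a rise of 1.19 (SE 0.090, adjusted p 0.00681). *Krt79* was 10.91, 10.81 and 10.89 with siNEG and 11.75, 11.78 and 11.97 with siPINC, a rise of 0.97 (adjusted p 0.00665). *Tmprss4*, a transmembrane serine protease, was 8.45, 8.34 and 8.59 with siNEG and 9.56, 9.61 and 9.64 with siPINC, a rise of 1.14 (adjusted p 0.00469). None of these genes overlapped between the groups, which holds for every called probe. Of the 21 keratins measured 4 were called, all higher (*Krt6a*, *Krt6b*, *Krt23* and *Krt79*), against 1.13% of all genes. The median of the list was 0.29 against -0.01 for all genes, and the 4 calls were made in each fit without 1 array. None of the 21 was called in a fit of the siPINC and siNEG +LH arrays alone, where 7 probes of the whole array were called. The basal keratins *Krt14* and *Krt5* differed by 0.39 (adjusted p 0.278) and 0.43 (0.0627).

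The other genes among the 20 largest rises were *Mab21l4* (1.71), *Fam25c* (1.45), the atypical chemokine receptor *Ackr3* (1.45), the skin aspartic protease *Asprv1* (1.39), the matrix protein *Spon2* (1.34), the kallikrein *Klk11* (1.30), lactoferrin *Ltf* (1.27), the homeodomain-only protein *Hopx* (1.17), *Upk3bl* (1.15), the glutathione transferase *Gsta4* (1.05), the calcium-binding protein *S100a14* (1.05) and *AU021092* (1.05). Their adjusted p lay between 0.00469 and 0.0471 by limma. Of the 20, 9 were called in every fit without 1 array: *Ltf*, *Wfdc21*, *Krt6a*, *Gm5476*, *Mab21l4*, *Krt6b*, *Krt23*, *Tmprss4* and *Gsta4*. *Klk11* and *AU021092* were called in none of these 6 fits. With normexp background correction, which adds an offset of 50 and so shrinks differences of dim probes, the rise was 0.61 for *Wfdc21*, 0.39 for *Xpnpep2*, 0.90 for *Sprr1a*, 0.93 for *Gm5476*, 0.69 for *Mab21l4*, 0.75 for *Fam25c*, 0.47 for *Ackr3*, 0.75 for *Asprv1*, 0.62 for *Spon2*, 0.34 for *Klk11*, 0.45 for *Hopx* and 0.75 for *Upk3bl*. The cornified envelope and squamous differentiation list as a whole stayed near 0: 2 of 21 genes were called, *Sprr1a* and *Dmkn* (0.88), with a median of 0.03, and only 9 of the 21 were well above background on every array of a group.

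**Figure D1:**
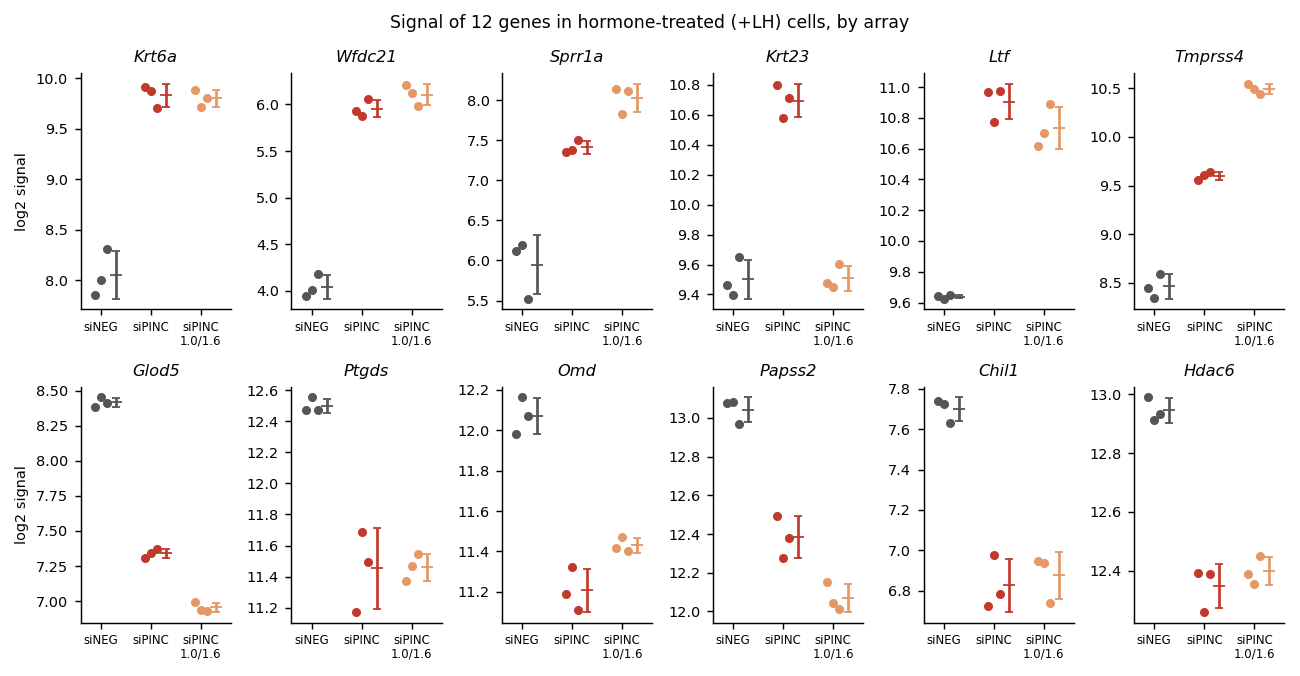
Log2 signal of 12 genes on each array of +LH cells, with a point per array and the mean and SD (n = 3) beside each group. The y axes differ between genes and do not start at 0. The siPINC arrays lie above the siNEG arrays in the upper row and below them in the lower row.

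*Glod5* and *Ptgds* were the largest falls of detected probes with a symbol. *Glod5*, a member of the glyoxalase domain family, was 8.39, 8.45 and 8.41 with siNEG and 7.31, 7.34 and 7.37 with siPINC. Its change was -1.08 with an SE of 0.044 and an adjusted p of 0.00127 by limma, and stayed between -1.09 and -1.06 when each array was left out. *Ptgds*, prostaglandin D synthase, was 12.47, 12.56 and 12.47 with siNEG and 11.17, 11.69 and 11.50 with siPINC, a fall of 1.05 (adjusted p 0.0253). Its siPINC arrays were more spread out than its siNEG arrays but all lay below them. Without siNEG +LH replicate 1 the difference was -1.06 with an adjusted p of 0.0868.

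*Omd*, osteomodulin, a small proteoglycan of the matrix, was 11.98, 12.16 and 12.07 with siNEG and 11.19, 11.32 and 11.11 with siPINC, a fall of 0.86 (adjusted p 0.0104). *Sod3*, the secreted superoxide dismutase, was 8.72, 8.55 and 8.61 with siNEG and 7.87, 7.89 and 7.79 with siPINC, a fall of 0.78 (adjusted p 0.0103). *Papss2*, which makes the sulphate donor used on proteoglycans, was 13.08, 13.08 and 12.97 with siNEG and 12.49, 12.28 and 12.38 with siPINC, a fall of 0.66 (adjusted p 0.0184). The groups did not overlap for any of these genes, which was a condition for their choice. *Hdac6*, a cytoplasmic deacetylase, was 12.99, 12.91 and 12.93 with siNEG and 12.39, 12.26 and 12.39 with siPINC, a fall of 0.60 (adjusted p 0.0124). Without 1 array the adjusted p reached 0.0519 for *Omd*, 0.0875 for *Papss2* and 0.0533 for *Hdac6*.

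Other genes among the 20 largest falls were *Map7d2* (-0.94), the chitinase-like gene *Chil1* (-0.87), the BMP antagonist *Chrdl2* (-0.82), the R-spondin receptor *Lgr6* (-0.78), *Tmem116* (-0.77), *Ucma* (-0.72), *Pcsk1n* (-0.64), *Fn3k* (-0.63), *Rtn1* (-0.61), *Pde4dip* (-0.61), the actin nucleator *Spire1* (-0.58), *Cmtm5* (-0.57) and *Mro* (-0.57). Of the 20 falls, *Glod5* and *Sod3* were called in every fit without 1 array and 8 in none of them. Probes of a gene did not always give 1 value: the brightest probe of *Pde4dip* differed by -0.06 (adjusted p 0.788), a second probe of *Mro* by -0.03 (adjusted p 0.997) and the brightest of *Map7d2* by -0.82 (adjusted p 0.0669). With normexp correction the difference was -0.30 for *Map7d2*, -0.33 for *Lgr6* and -0.38 for *Spire1*.

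Of 22 genes of DNA replication and mitosis, 15 rose with siPINC by 0.31 to 0.74 and none fell, against 1.13% of all genes that rose. Promoters of such genes often carry CCAAT boxes, to which NF-Y binds, the cell cycle genes homology region (CHR), and E2F sites. The 250 bases before the start of 4 of the genes that rose are shown as examples, 3 with CCAAT and CHR letters and *Mcm6* with CCAAT and E2F letters. They are from RefSeq on GRCm38.p6, 5′ to 3′ on the gene's strand, here the minus strand in each, and capitals mark CCAAT (or ATTGG on the other strand), TTTGAA (or TTCAAA) for the CHR, and TTTGGCGC, TTTGCCGC, TTTCGCGC or TTTCCCGC (or their reverse complements) for E2F.
*Top2a*: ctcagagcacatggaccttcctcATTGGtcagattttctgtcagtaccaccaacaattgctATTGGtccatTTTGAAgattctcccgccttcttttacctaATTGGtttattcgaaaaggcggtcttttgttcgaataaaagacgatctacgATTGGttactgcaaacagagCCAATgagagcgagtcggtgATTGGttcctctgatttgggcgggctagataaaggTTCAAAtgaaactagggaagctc
*Ccnb2*: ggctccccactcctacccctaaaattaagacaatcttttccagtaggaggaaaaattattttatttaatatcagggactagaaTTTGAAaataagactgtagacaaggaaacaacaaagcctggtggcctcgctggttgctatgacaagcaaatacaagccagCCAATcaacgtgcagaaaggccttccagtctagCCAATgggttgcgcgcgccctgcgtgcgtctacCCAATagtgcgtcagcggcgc
*Cdc20*: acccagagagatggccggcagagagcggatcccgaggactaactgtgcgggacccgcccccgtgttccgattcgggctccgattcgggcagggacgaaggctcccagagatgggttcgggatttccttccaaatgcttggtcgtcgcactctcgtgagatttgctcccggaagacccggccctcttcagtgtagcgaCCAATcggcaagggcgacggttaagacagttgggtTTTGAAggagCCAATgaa
*Mcm6*: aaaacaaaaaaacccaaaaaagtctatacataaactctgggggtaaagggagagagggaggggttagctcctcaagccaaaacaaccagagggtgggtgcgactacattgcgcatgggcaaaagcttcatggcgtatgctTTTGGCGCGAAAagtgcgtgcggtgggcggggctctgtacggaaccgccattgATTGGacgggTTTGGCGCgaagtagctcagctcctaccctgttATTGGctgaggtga
*Top2a* (chr11:99024190-99024439), the topoisomerase that untangles chromosomes, has 6 CCAAT boxes and 2 CHR letters in this window, and *Ccnb2* (chr9:70421555-70421804), cyclin B2, has 3 CCAAT boxes and 1 CHR. *Cdc20* (chr4:118437344-118437593), which activates the ubiquitin ligase that ends mitosis, has 2 CCAAT boxes and 1 CHR, and *Mcm6* (chr1:128359706-128359955), a subunit of the replicative helicase, has 2 CCAAT boxes and 3 E2F letters, 2 of which overlap. Of the 15 proliferation genes that were called, 14 had a promoter in the table, 15 promoters in all. CCAAT was in 14 of the 15 promoters (93.3%), against 33.8% of the 32851 promoters of all genes, TTTGAA in 4 (26.7% against 16.0%) and the E2F letters in 3 (20% against 1.86%). In the whole list, called or not, CCAAT was in 17 of 20 promoters, TTTGAA in 6 and the E2F letters in 4. The whole list includes the promoters of the genes that rose, so its shares cannot show whether the motifs are particular to them. The motifs were looked for after these genes were seen to rise, and a match is a description of the letters and not a bound site.

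*Top2a* was 9.12, 9.17 and 8.96 with siNEG and 9.79, 9.78 and 9.78 with siPINC, a rise of 0.70 (SE 0.068, adjusted p 0.0142 by limma). *Ccnb2* was 11.29, 11.29 and 11.19 with siNEG and 11.92, 11.92 and 11.93 with siPINC, a rise of 0.67 (SE 0.049, adjusted p 0.00665). *Mcm6* was 12.39, 12.28 and 12.26 with siNEG and 12.96, 12.86 and 12.97 with siPINC, a rise of 0.62 (SE 0.063, adjusted p 0.0152). In each the lowest siPINC array was above the highest siNEG array. *Bub1*, a kinase of the spindle checkpoint, rose from 7.35, 7.33 and 7.22 to 8.06, 8.0 and 8.07, a change of 0.74 (adjusted p 0.0103). *Mki67*, the Ki-67 proliferation antigen, went from 11.89, 11.80 and 11.62 to 12.36, 12.29 and 12.41, a change of 0.58 (adjusted p 0.0285).

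The 15 genes called were *Mki67*, *Top2a*, *Ccnb1*, *Ccnb2*, *Ccna2*, *Bub1*, *Aurka*, *Plk1*, *Mcm3*, *Mcm5*, *Mcm6*, *Mcm7*, *Birc5*, *Cdc20* and *Rrm2*. *Mcm7* had the smallest rise and *Bub1* the largest. *Cdk1* (0.45, adjusted p 0.718), *Aurkb* (-0.01, 1.00), *Mcm2* (0.29, 0.392) and *Mcm4* (0.45, 0.0717) were not called. The median of the list was 0.57, and 19 of the 22 did not overlap between the groups, against 24.8% of all genes. In a culture, a change in the number of dividing cells and one in these RNAs per cell cannot be told apart.

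How many of these genes were called turned on single arrays and on the fit used, while the size did not. The count of 15 became 7, 6 or 9 without siNEG +LH replicate 1, 2 or 3 and 3, 8 or 3 without siPINC +LH replicate 1, 2 or 3, and the median stayed between 0.51 and 0.60. *Ccnb2*, *Bub1* and *Birc5* were called in all 6 of these fits. With normalization to the 75th percentile none was called and the median was 0.54. None was called either in a fit of the siPINC and siNEG +LH arrays alone, or with a term for the replicate number. The median was 0.57 in both. On the level of the whole list, the median over its genes, relative to the mean of siNEG +LH cells, was 0.04, 0.03 and -0.07 on the siNEG arrays and 0.58, 0.52 and 0.61 on the siPINC arrays. The siPINC1.0/1.6 +LH arrays lay higher again, at 1.00, 1.05 and 0.99, and the -LH arrays of all siRNAs between 2.36 and 2.59, so siPINC +LH cells lay between the siNEG +LH and the -LH arrays.

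**Figure D2:**
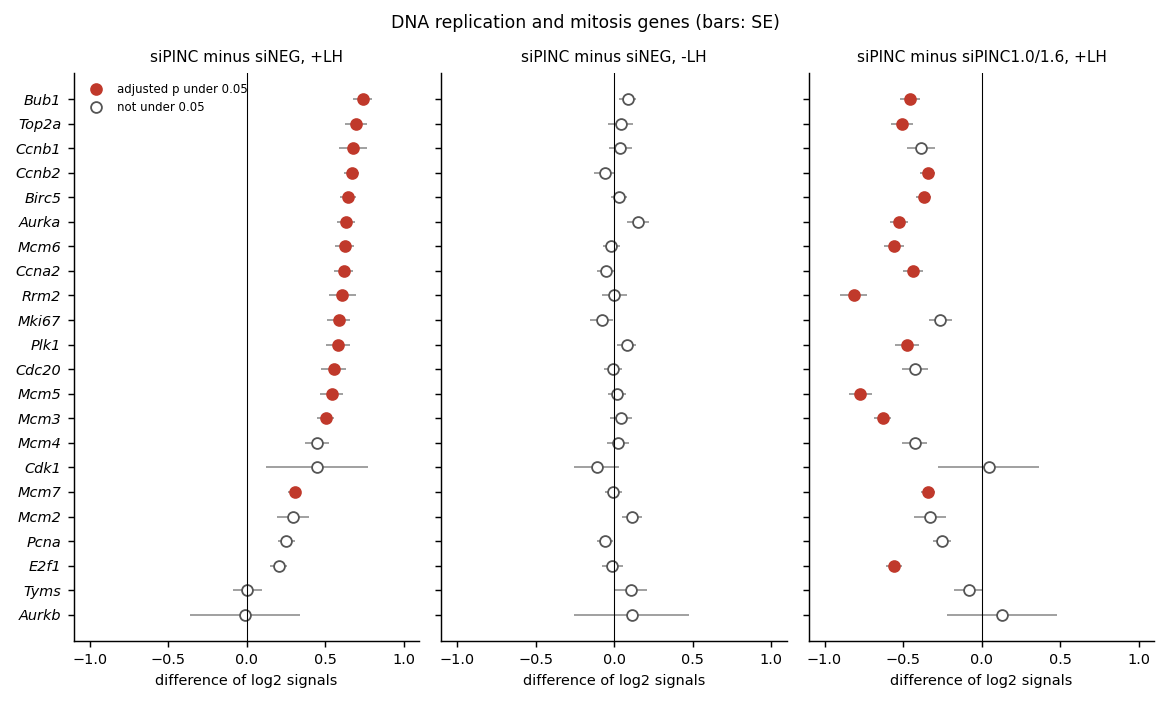
Differences of log2 signal with their SE for 22 genes of DNA replication and mitosis, for siPINC against siNEG in +LH cells (3 and 3 arrays), the same in -LH cells (2 and 2) and siPINC against siPINC1.0/1.6 in +LH cells (3 and 3). Filled points have an adjusted p under 0.05, which holds for 15 genes on the left, 0 in the middle and 13 on the right.

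In -LH cells the median of the list with siPINC was 0.02, and no gene of it was called by limma, in a comparison where 0 probes of the array (0.0%) were called and 5391 (9.68%) had an unadjusted p under 0.05. The change in the siPINC effect with hormones was tested as an interaction of siRNA and hormones, over the +LH arrays and the 2 and 2 -LH arrays. Medium and time may differ between -LH and +LH cells along with the hormones, and their part was not tested. Of all genes 136 (0.674%) had an effect that was significantly higher in +LH than in -LH cells and 40 (0.198%) one that was lower. Of the 22 proliferation genes 7 were among the higher, with a list median of 0.54. *Ccnb2* had an interaction of 0.73 (SE 0.081, adjusted p 0.00911). The interaction as a whole leaned on single -LH arrays: of 280 probes called (0.503%) 72.5% were higher in +LH cells, while without siPINC -LH replicate 1 or 2 there were 656 or 531 with 27.7% or 31.6% higher. Without siNEG -LH replicate 1 there were 646, and without a +LH array between 105 and 211.

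Of the milk protein genes lactoferrin rose most with siPINC. *Ltf*, which encodes this iron-binding protein, was 9.64, 9.63 and 9.65 with siNEG and 10.97, 10.77 and 10.98 with siPINC, a rise of 1.27 (SE 0.087, 2.41-fold, adjusted p 0.00573 by limma). *Csn3*, κ-casein, was 9.49, 9.46 and 9.65 with siNEG and 10.19, 10.32 and 10.51 with siPINC, a rise of 0.81 (SE 0.10, adjusted p 0.027). *Csn2*, β-casein, was 10.98, 10.76 and 11.08 with siNEG and 11.03, 11 and 11.34 with siPINC. The *Csn2* arrays overlapped, and the difference of 0.18 (95% interval -0.22 to 0.59) had an adjusted p of 0.754.

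*Pip*, prolactin-induced protein, was 16.09, 16.03 and 16.17 with siNEG and 16.46, 16.44 and 16.47 with siPINC, a rise of 0.36 (adjusted p 0.0358) without overlap. *Wap*, whey acidic protein, was not well above background in either group. Of the 14 milk protein genes measured 3 were called, *Ltf*, *Csn3* and *Pip*, all higher, against 1.13% of all genes. The list median of 0.20 fell to 0.10 without siPINC +LH replicate 3 and to 0.09 with normexp correction. *Ltf* was called in every fit without 1 array, with a rise of 1.23 to 1.33, and *Csn3* in none of them, with adjusted p between 0.0513 and 0.110. *Pip* was called in some, with adjusted p between 0.049 and 0.137. In a fit of the siPINC and siNEG +LH arrays alone none of the 14 was called, *Ltf* included. The same held with a term for the replicate number, and the list median was 0.20 in both.

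*Elf5*, the transcription factor of alveolar luminal progenitors, was 10.62, 10.49 and 10.53 with siNEG and 10.90, 11.04 and 10.99 with siPINC, a rise of 0.43 (SE 0.065, adjusted p 0.0465). It was the 1 gene called of 17 in the prolactin and Stat5 list, against the same 1.13%, whose median was 0.04, and without any 1 array its adjusted p lay between 0.0947 and 0.167. The claudin genes *Cldn8* and *Cldn7*, of the tight junctions that seal the alveolus, rose by 0.70 (adjusted p 0.0103) and 0.51 (0.0434), the 2 of 20 genes called in their list, against 1.13% of all genes called higher. *Cldn8* was 7.73, 7.82 and 7.80 with siNEG and 8.49, 8.47 and 8.49 with siPINC, and it was called in every fit without 1 array and *Cldn7* in none. Neither was called in a fit of the siPINC and siNEG +LH arrays alone. Of 21 genes of milk fat and lipid synthesis *Mal* (0.47), a protein of apical membrane traffic, and the triglyceride synthase gene *Dgat2* (0.41) rose and *Srebf1*, a regulator of lipid synthesis, fell by 0.39, with a list median of -0.04, and none of these 3 was called in any fit without 1 array.

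The study named 18 genes from these cells, picked in part on these same arrays, so their counts are not independent evidence of a direction. With siPINC in +LH cells 5 of them were called higher (*Ltf*, *Csn3*, *Mal*, *Edn1* and *Pip*) and *Chil1* lower, and 12 did not pass the test. *Chil1* was 7.74, 7.73 and 7.63 with siNEG and 6.72, 6.98 and 6.78 with siPINC, a fall of 0.87 (adjusted p 0.0152). *Mal* rose by 0.47 (adjusted p 0.0284) and *Edn1*, endothelin 1, by 0.41 (0.0284), and neither was called in any fit without 1 array. *Wnt4* and *Cidea* differed by 0.55 (adjusted p 0.117) and 0.53 (0.0728), and *Dlk2*, *Itgb3*, *Clu*, *Ednra* and *Mib2* by amounts between -0.18 and 0.10.

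**Figure D3:**
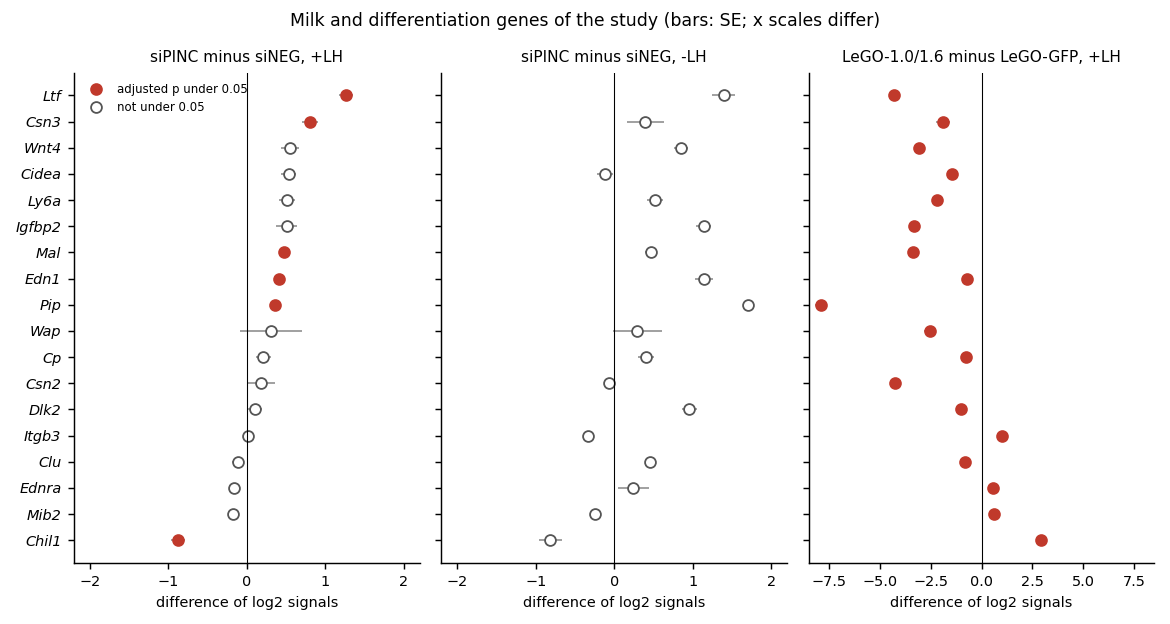
Differences of log2 signal with their SE for the 18 genes that the study named, for siPINC against siNEG in +LH cells, the same in -LH cells, and LeGO-1.0/1.6 against LeGO-GFP in +LH cells, the last on a wider x axis. Filled points have an adjusted p under 0.05, which holds for 6 genes on the left, none in the middle (2 and 2 arrays) and 18 on the right. *Ltf* is at the top with 1.27 on the left and -4.31 on the right, and *Chil1* at the bottom with -0.87 and 2.90.

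Most interferon-stimulated genes read higher with siPINC than with siNEG in +LH cells, but all save 1 missed the threshold. *Oasl1*, an antiviral oligoadenylate synthetase-like protein, was 5.19, 5.55 and 5.36 with siNEG and 6.22, 6.12 and 6.32 with siPINC, a rise of 0.85 (SE 0.107, adjusted p 0.0275 by limma), and it was the 1 gene called of 28, against 1.13% of all genes. With normexp correction its difference was 0.38 (adjusted p 0.159). *Isg15*, a ubiquitin-like modifier, was 13.27, 12.52 and 12.92 with siNEG and 13.90, 13.81 and 13.90 with siPINC, a difference of 0.97 (SE 0.194, adjusted p 0.116). *Oas2* was 8.69, 8.13 and 7.97 with siNEG and 9.82, 9.32 and 9.83 with siPINC, a difference of 1.39 (SE 0.224, adjusted p 0.0569). The siNEG arrays of *Isg15* and *Oas2* were the more spread out, with siNEG +LH replicate 1 the highest of them in *Oas2*, and did not overlap with siPINC.

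Of the 28 genes 25 had a difference above 0, against 48.3% of all genes, and 22 did not overlap, against 24.8%, with a median of 0.51. The 28 share their regulators and are not independent of each other. The number called rose from 1 to 14 among bright probes alone and to 12 in a fit of all 24 arrays, and was 0 without siNEG +LH replicate 3 or any 1 of the siPINC arrays, as it was with normalization to the 75th percentile. On slide 2 alone the median was 0.62 with 1 gene called. The list medians, relative to siNEG +LH cells, were 0.17, -0.04 and -0.11 on the siNEG arrays and 0.52, 0.40 and 0.56 on the siPINC arrays.

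The same genes lay the other way in -LH cells, where *Isg15* was 12.73 and 12.89 with siNEG and 11.93 and 11.88 with siPINC, and *Oasl1* was 8.39 and 8.43 with siNEG and 7.53 and 7.49 with siPINC. The list median in -LH cells was -0.67, with none of the 28 called. The interaction with hormones was significantly above 0 for 14 of the 28 genes, against 0.674% of all genes, with a median of 1.34. It was 2.23 (SE 0.197, adjusted p 0.00195) for *Ifit1*, 1.87 (SE 0.262, adjusted p 0.0193) for *Isg15* and 1.76 (SE 0.146, adjusted p 0.00132) for *Oasl1*. *Oas2* and *Usp18*, which takes ISG15 off proteins, had 1.99 (adjusted p 0.0307) and 1.97 (adjusted p 0.0322). *Ifit1* and *Oasl1* were called whichever array was left out. *Isg15* had an adjusted p of 0.0525 and 0.0544 without siPINC +LH replicate 1 and 3, and *Oas2* and *Usp18*, which missed the threshold without most single arrays, had up to 0.0764 and 0.0793. All -LH arrays lay on slide 1 and 5 of the 6 +LH arrays on slide 2, so for those 5 slide and hormones cannot be told apart. The slide does not differ between siPINC and siNEG within -LH cells.

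**Figure D4:**
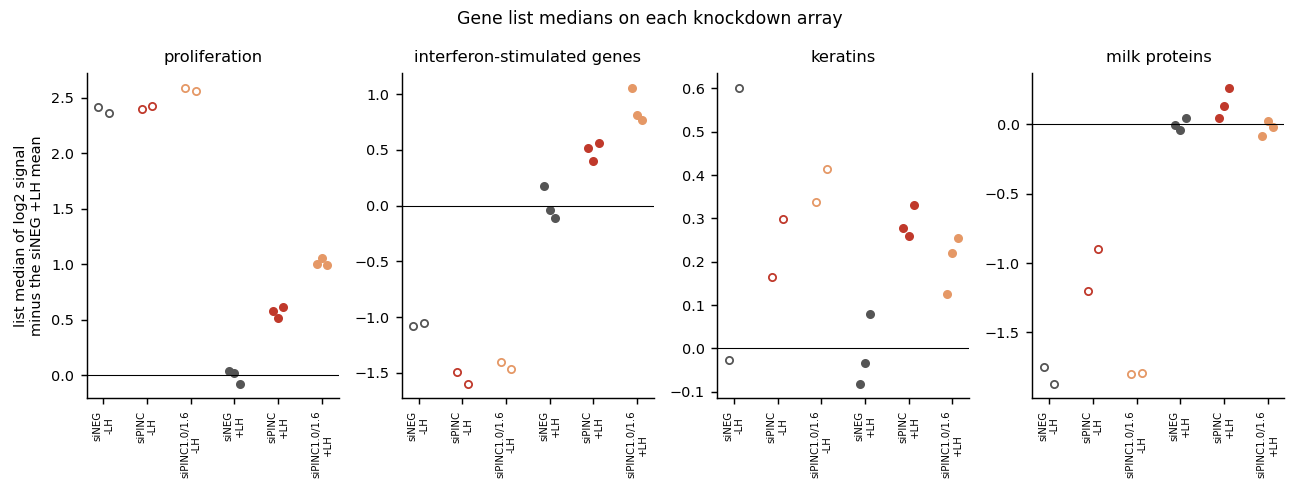
Median over the genes of 4 lists on each knockdown array, relative to the mean of the siNEG +LH arrays (log2 signal, y scales differ). Open points are -LH arrays (n = 2 per group) and filled points +LH arrays (n = 3). In proliferation genes the siPINC +LH arrays lie at 0.52 to 0.61, and in interferon-stimulated genes they lie above siNEG in +LH cells and below it in -LH cells.

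The other lists had medians between -0.07 and 0.19, against -0.01 for all genes. Of 31 acute phase and innate defence genes 4 were called, *Wfdc21*, the peptidoglycan receptor *Pglyrp1* (0.95) and the chemokine *Ccl9* (0.44) higher and *Chil1* lower, against 1.13% of all genes higher and 0.243% lower, with a median of 0.14. Of 24 matrix and mesenchymal genes *Vim*, vimentin, was called (0.45, adjusted p 0.0358), with a median of 0.04, and of 20 genes of the unfolded protein and integrated stress response *Psat1*, of serine synthesis (0.40), with a median of 0.01. *Ccl9* and *Psat1* were called in none of the fits without 1 array, and *Chil1*, *Pglyrp1* and *Vim* in some. An unadjusted p under 0.05 was found for 15% of all genes. No gene was called by limma among 16 glucocorticoid targets (median -0.07, 6 with an unadjusted p under 0.05), 19 genes of cholesterol synthesis (0.06, 2), 16 p53 targets (-0.07, 3) and 10 of antigen presentation (0.19, 4). Of the 11 subunits of PRC2, the histone methyltransferase complex, none was called and 1 had an unadjusted p under 0.05. Its catalytic subunits *Ezh2* and *Ezh1* differed by 0.11 (SE 0.057) and -0.05 (SE 0.054), and *Suz12* and *Eed* by -0.05 (SE 0.094) and -0.04 (SE 0.072).

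**Figure D5:**
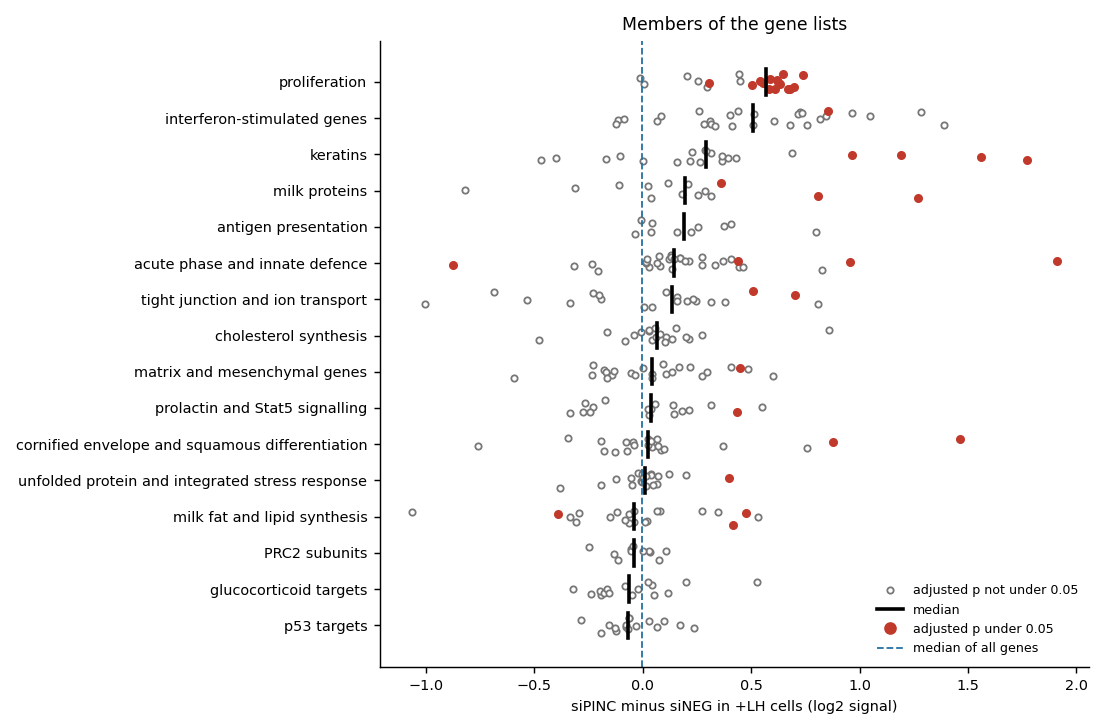
Difference siPINC minus siNEG in +LH cells (log2 signal) of each gene of 16 lists, with lists ordered by their median (black bars). Filled points have an adjusted p under 0.05 and the dashed line is the median of all 20167 genes, -0.01. The proliferation list stands at the top with 15 filled points and a median of 0.57.

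siPINC and siPINC1.0/1.6 share siRNA #1 and differ in the other, so their direct comparison in +LH cells (3 and 3 arrays) shows what the 2 pairs did not share. The *mPINC* probe differed by -0.69 between siPINC and siPINC1.0/1.6 and by -0.50 between siPINC and siNEG. Its mean was thus no lower with siPINC1.0/1.6 than with siNEG, and these arrays did not show a knockdown by that pair in +LH cells. Of all genes 173 (0.858%) were higher with siPINC and 190 (0.942%) lower. The comparison has the siPINC arrays in common with siPINC against siNEG, so its values are set beside the others and not counted against them. There were 509 probes called (0.914%), and between 147 and 312 when each of the 6 arrays was left out. *Krt6a*, at 9.88, 9.71 and 9.81 with siPINC1.0/1.6, differed by 0.03 (95% interval -0.27 to 0.33) and *Wfdc21*, at 6.21, 6.12 and 5.99, by -0.15 (95% interval -0.37 to 0.06). *Krt23*, at 9.48, 9.45 and 9.60 with siPINC1.0/1.6, lay among its siNEG values and was higher with siPINC by 1.19 (adjusted p 0.00655). *Krt6b*, at 11.50, 11.45 and 11.41 with siPINC1.0/1.6, was lower with siPINC by 1.58 on its brightest probe (adjusted p 0.00546), while its other probe differed by -0.43 (adjusted p 0.102).

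Proliferation genes were lower with siPINC than with siPINC1.0/1.6 in 13 of 22 (list median -0.43). *Top2a*, for example, was 10.20, 10.34 and 10.32 with siPINC1.0/1.6, 0.51 above siPINC (adjusted p 0.0273). Of the 14 milk protein genes 2 were called, both higher with siPINC, with a list median of 0.14, while *Ltf* differed by 0.17 (adjusted p 0.63) and *Pip* by 0.30 (0.0516). *Csn2* was 9.69, 9.48 and 10.06 with siPINC1.0/1.6, and the difference of 1.38 (SE 0.171, adjusted p 0.0213) was larger than the spread between arrays. *Csn3* differed by 0.99 (adjusted p 0.0115), *Elf5* by 0.77 (0.00736) and *Cldn8* by 0.99 (0.00546), each higher with siPINC. *Sod3*, at 8.53, 8.52 and 8.63, was lower with siPINC by 0.71 (adjusted p 0.00821), and *Glod5*, at 6.99, 6.94 and 6.93, was higher by 0.39 (adjusted p 0.0157).

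Some genes that differed between the pairs were not called for siPINC against siNEG. The kallikrein genes *Klk1b26*, *Klk1b5* and *Klk1b22*, which are near-identical copies, were higher with siPINC by 1.75, 1.70 and 1.56. *Klk1b5* was 8.40, 8.78 and 8.36 with siPINC, 8.69, 8.72 and 8.87 with siNEG and 6.88, 6.78 and 6.79 with siPINC1.0/1.6, which stood apart from the other two. The cytokine *Il6* was 3.00, 3.37 and 3.82 with siPINC, 3.95, 2.80 and 3.44 with siNEG and 5.73, 5.81 and 5.51 with siPINC1.0/1.6. It was not well above background on any siPINC or siNEG array, and so was at least 2.43-fold lower with siPINC than with siPINC1.0/1.6 (adjusted p 0.0305 by limma). *Stfa1*, a cysteine protease inhibitor, was likewise not well above background with siPINC or siNEG and at least 1.49-fold lower than with siPINC1.0/1.6 (adjusted p 0.00546). The neutrophil chemokine *Cxcl5* was lower with siPINC by 1.57. With normexp correction the differences were 0.90 for *Klk1b26*, 0.55 for *Klk1b22* and -1.04 for *Cxcl5*, and *Il6* was called in no fit without 1 array (adjusted p 0.0708 to 0.121), *Klk1b22* in 2 of 6.

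Other effects of siPINC differed between +LH and -LH cells. Among those lower in +LH cells were *Map7d2* with -1.94 on its brightest probe (adjusted p 0.00639), *Wif1*, a secreted Wnt inhibitor, with -1.56 (adjusted p 0.0208), *Pip* with -1.34 (adjusted p 0.000212) and the mucosal chemokine *Cxcl17* with -1.23 (adjusted p 0.0235). *Map7d2* and *Cxcl17* were not well above background on either siNEG -LH array, so the size of these 2 interactions rests in part on signals at background. *Afp*, α-fetoprotein, passed the same test (adjusted p 0.000909), but was well above background on the siPINC -LH arrays alone of these 4 groups. There it read 5.25 and 5.13, at least 1.97-fold above the 2.80 and 2.51 of siNEG -LH cells (adjusted p 0.139), and no size is given for its interaction. With normexp correction the interaction was -0.76 for *Wif1* and -0.26 for *Cxcl17*, neither of them called, and -0.88 for *Map7d2*, and *Afp* was no longer called. Without siPINC +LH replicate 3 *Wif1* and *Cxcl17* had an adjusted p of 0.0547 each, and *Cxcl17* had 0.0638 without siPINC +LH replicate 1 and 0.0613 without siNEG +LH replicate 2. For *Ltf* no such difference was detected: it was 7.81 and 7.51 in siNEG and 8.92 and 9.18 in siPINC -LH cells, and the interaction was -0.12 (95% interval -0.49 to 0.24, adjusted p 0.954). The -LH pair has 2 arrays per group and shares none with the +LH comparison.

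The probes that moved with siPINC in +LH cells were then read in the -LH pair and in the LeGO pair, which shares no array with them. In -LH cells the 307 higher probes had a median of 0.07 with 208 above 0 (67.8%, against 49.1% of all probes), and the 72 lower ones a median of -0.28 with 15 above 0 (20.8%). With LeGO-1.0/1.6 against LeGO-GFP, where 16857 probes (30.3%) were called, 8068 higher (14.5%) and 8789 lower (15.8%), 197 of the 307 were higher (64.2%) and 76 lower (24.8%). These make up 2.44% of all the higher and 0.865% of all the lower calls of that comparison. Of the 72 lower probes 2 were higher (2.78%) and 53 lower (73.6%), the latter 0.603% of all lower calls. In both sets the calls in the same direction as with siPINC outnumbered those in the opposite one.

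Both directions are seen in the gene lists. Of the 22 proliferation genes 18 were higher with LeGO-1.0/1.6, against 22.6% of all genes, and none was lower (median 1.13), the direction they had with siPINC. Of the 14 milk protein genes 11 were lower with LeGO-1.0/1.6, against 23.1% of all genes, and none higher, the opposite of the 3 that rose with siPINC. *Ltf* was 14.88, 14.97 and 14.88 with LeGO-GFP and 10.63, 10.59 and 10.60 with LeGO-1.0/1.6, a fall of 4.31 (adjusted p 4.93e-08 by limma). *Elf5* fell by 5.47. *Cldn8* and *Krt23* were not well above background with LeGO-1.0/1.6 and were at least 17.2-fold and 427-fold lower there (adjusted p 3.94e-08 and 3.49e-08). *Krt6a* rose by 0.62 (adjusted p 0.000302).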

How the data were processed

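RNA of single cultures, 50 ng each, was labelled with Cy3 and hybridised to 1-colour Agilent arrays without pooling. The authors deposited intensity values from Agilent Feature Extraction 11.0.1.1, namely a processed signal corrected for background within each array but not normalized between arrays, and median spot and background signals, with other values of 0 or 1 that mark outliers and spots well above background. Their series matrix, also deposited, holds log2 values and served as an alternative. For the 59305 spots other than controls, the log2 of the processed signal was taken and quantile normalized over the 24 arrays, outlier spots (between 146 and 644 per array) were left out, and spots of a probe were averaged. No spot was saturated.

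A probe was well above background on an array when most of its spots were. This number of probes, and not a read depth, limits the precision. Symbols came from RefSeq accessions or the study's tables for 26616 of 55681 probes (20167 symbols). Groups were compared with the lmFit, contrasts.fit and eBayes functions of limma (version 3.58.1, on R 4.3.3), with 1 fit of the 9 +LH knockdown arrays for the main comparison. Tables and figures used Python 3.11.15, pandas 2.3.3, numpy 2.4.6, scipy 1.17.1 and matplotlib 3.10.9.

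The members and gene lists were chosen with earlier results of these data known. Named are *mPINC*, the study's 18 genes, the 20 largest rises and 20 largest falls among called, detected probes with a symbol and no overlap, called list members, the first 4 other members of a list, and the 5 largest in each direction of the siPINC1.0/1.6 comparison and the interaction. In simulated data with 200 changed probes of 55681, the siPINC against siNEG fit in +LH cells called 64% of changes of size 1 and 87% of size 2 on the log2 scale, and 3 unchanged probes. In -LH cells (2 and 2 arrays) it called 35% and 68%. The changed probes were drawn from those above the median signal, with independent normal noise and no slide effect. These shares therefore do not cover dim probes. Alternatives were other normalizations, background corrections, probe filters, fits and priors, the methods' t-test, a block for the replicate number, and each array left out. PCR and cell assays are not analysed here, and the values of a few genes are not reported here.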

Additional observations from a re-analysis of the deposited data

Results flagged for a closer look

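The effect of siPINC differed significantly between +LH and -LH cells, by the interaction term of limma, for the genes below. Values are the effect in +LH minus that in -LH cells on the log2 scale, each with an adjusted p under 0.05. Interferon-stimulated genes had higher effects in +LH cells, with 2.23 for *Ifit1*, 1.99 for *Oas2*, 1.97 for *Usp18*, 1.87 for *Isg15* and 1.76 for *Oasl1*. Genes of replication and mitosis did too, with 0.73 for *Ccnb2*, 0.67 for *Ccna2*, 0.66 for *Mki67*, 0.65 for *Top2a*, 0.65 for *Bub1*, 0.64 for *Mcm6* and 0.62 for *Birc5*. Among epithelial and other genes the difference was 1.5 for *Fam25c*, 1.21 for *Hopx*, 0.88 for *Krt6b*, 0.78 for *Krt79*, 0.65 for *Glod5*, 0.62 for *Vim*, 0.61 for *Elf5* and 0.61 for *Krt5*. Effects were lower in +LH cells for *Afp* (-2.24), *Map7d2* (-1.94, on its brightest probe), *Wif1* (-1.56), *Pip* (-1.34), *Cxcl17* (-1.23), *Dlk2* (-0.86), *Ccl9* (-0.77), *Edn1* (-0.74), *Hdac6* (-0.63) and *Clu* (-0.57). The -LH groups have 2 arrays each. *Afp* was not well above background in siNEG -LH or in either +LH group, *Map7d2*, *Cxcl17* and *Edn1* not in siNEG -LH cells, and *Glod5* in neither -LH group, so the sizes of these rest in part on signals at background.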

How the results depend on the processing

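All 379 probes called for siPINC against siNEG in +LH cells kept their direction under every alternative that tested them. Fits that keep the same group means, and those without 1 array of groups that do not overlap, could not have reversed it. The number called did not hold. It was 24 with normalization to the 75th percentile, 941 with bright probes only, 1103 in a fit of all arrays and 906 with a term for the slide, 7 with the groups compared alone, 44 with the deposited series matrix, 25 with the methods' t-test after Benjamini-Hochberg adjustment, 717 with a trended and robust prior, and 66 to 213 without 1 array. Against siPINC1.0/1.6 the 509 became, in the same order, 141, 1299, 1196, 1423, 24, 161, 36, 841 and 147 to 312. The interaction's 280 became 7 with the 75th percentile, 427 with bright probes, 432 with a slide term, 4 with the series matrix, 451 with the trended prior and 105 to 656 without 1 array. For siPINC against siNEG in -LH cells 0 became 178 with normexp and 0 to 153 without 1 array. The cause was not tested, save that fewer arrays or probes entered some fits by construction. LeGO-1.0/1.6 against LeGO-GFP stayed within 1.5 times.

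Deviations of same-numbered +LH arrays correlated between -0.33 and 0.09, so no pairing by replicate number was seen in the signals. Whether same-numbered cultures were started or treated together is not stated in the labels. With the replicate number as a block 1 probe was called for siPINC against siNEG, 0 against siPINC1.0/1.6 and 29 in the interaction.

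Against siPINC1.0/1.6 all 509 kept their direction too, in the fits that tested them, several of which keep the same group means. Of the 280 interaction calls 278 did so with normexp and with the series matrix. Of the 16857 LeGO calls 16813 to 16851 did with the 75th percentile, the series matrix and normexp. Of the genes named, those that changed sign were not called. *Itgb3* was -0.007 with the 75th percentile, -0.027 with normexp, -0.029 with the series matrix and between -0.003 and 0.04 without 1 array. *Aurkb*, not above background, was 0.039 with the 75th percentile, 0.181 with a slide term and -0.212 to 0.181 without 1 array. *Ezh1* was 0.013 with normexp and with the series matrix. Without 1 array *Wap* ranged from -0.052 to 0.616, *Suz12* from -0.106 to 0.017, *Stfa1* from -0.025 to 0.038 and *Il6* from -0.291 to 0.281.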

Other observations

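Of the 379 probes called for siPINC against siNEG in +LH cells, 60 had no gene symbol, 47 of the higher and 13 of the lower ones. Among them were 23 higher and 4 lower probes that the array's design places in transcribed regions between genes (mm9 coordinates). The probe for the region chr6:40693617-40720167 on the forward strand was 8.49, 8.34 and 8.48 with siNEG and 9.14, 9.09 and 9.14 with siPINC, a rise of 0.69 (SE 0.057, adjusted p 0.0103 by limma) without overlap. It was 10.01, 10.00 and 9.92 with siPINC1.0/1.6 and between 11.34 and 11.60 in -LH cells, the order that the proliferation list had. The probe for chr1:175705225-175717250 on the reverse strand rose by 0.72 (adjusted p 0.0258).

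Among the lower probes, the one for chr6:31555210-31693051 on the forward strand was 6.05, 6.02 and 6.10 with siNEG, 5.6, 5.50 and 5.51 with siPINC and 4.31, 4.27 and 4.16 with siPINC1.0/1.6. It was not well above background on any -LH or LeGO array. The fall with siPINC was 0.52 (SE 0.059, adjusted p 0.0201 by limma). The probe for chr4:119406384-119407856 on the forward strand fell by 0.44 (adjusted p 0.0498), from between 9.04 and 9.28 to between 8.70 and 8.76.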
